A study of Mus musculus with 19 samples.

Results

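The 10 genes of polyamine metabolism described here were taken by name and matched by symbol to the Ensembl identifiers of the count table. All 10 were found among the 39179 gene identifiers, and all 10 passed the filter on low counts, which kept 12462 genes. They comprise 4 enzymes of synthesis (Odc1, Amd1, Srm and Sms), 3 regulators of ornithine decarboxylase (Azin1, Oaz1 and Oaz2) and 3 enzymes of breakdown (Sat1, Smox and Paox). Their levels were compared across 10 liver tumours from male mice, tumours 04 to 13.

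Every mouse in the series carried 1 Ctnnb1tm1Mmt allele, which gives an activated β-catenin once recombined, and 2 copies of Gt(ROSA)26Sortm1(MYC)Djmy, a human MYC transgene that is silent before Cre acts. Cre came from the virus AAV8.TBG.PI.Cre.rBG, given at 640000000 genome copies per mouse to the tumour and control groups and at 200000000000 to the high AAV controls, under the hepatocyte promoter of the human thyroxine-binding globulin gene, so the drivers were confined by design to hepatocytes that took up virus. The series asks how far tumours of this genotype differ from one another. Tumours 01 to 03 and the 6 control livers are not analysed here, and no comparison with liver outside a tumour was made. A tag in the column names is shared by some tumours (05 with 06, 07 with 08, 09 with 10, and 11 with 12 and 13), and its first part joins them into families of 3 (04 to 06), 2 (07 and 08) and 5 (09 to 13) tumours. The meaning of a tag is not given in the labels. Tumours may therefore share a mouse, and the tests below measure only the spread between these samples.

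Polyamines are small positively charged molecules that bind nucleic acids and are needed for translation and cell division. Odc1 makes putrescine from ornithine, Srm and Sms add aminopropyl groups to give spermidine and spermine, and Amd1 supplies those groups from S-adenosylmethionine. Antizymes (Oaz1 and Oaz2) bind Odc1 and send it to the proteasome, and Azin1 is an inactive relative of Odc1 that holds antizyme back. Sat1 acetylates spermidine and spermine for export or for oxidation by Paox, and Smox oxidises spermine directly. Odc1 is a textbook target of MYC, and the liver is a major site of ornithine and methionine metabolism.

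All 8 hepatocyte markers were detected in every tumour, and their summed level ranged from 28140 CPM (counts of a gene per 1000000 gene counts, with each library's total scaled by its TMM factor) in tumour 10 to 42930 in tumour 06, with Alb the most abundant at a mean of 17540 CPM. Gene counts ranged from 11687034 to 36964427 per tumour, so 3 counts corresponded to between 0.0812 and 0.257 per 1000000 gene counts before that scaling, and no member fell below 21 counts in any tumour. Tumours 05, 06 and 07 stood apart in short non-coding transcripts around Rpph1, the RNA of ribonuclease P, of which 4 of 8 listed genes were in the table. The summed level of these was 60.1, 47.1 and 83.6 CPM in them, against a median of 3.96 CPM over all 10 tumours. Values without these 3 libraries are given beside many of the results.

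A pair of sequences from this pathway shows both how it is regulated and what limits its measurement. Antizyme mRNA contains an early stop codon, and polyamines promote a shift of the ribosome past it into the next frame, so that the protein is made when polyamines are plentiful. The stretch around that stop, taken from GENCODE M39 transcripts, is shown for both antizymes with the stop codon in capitals.

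Oaz1: gcctcggtggtgctccTGAtgtccctcacc

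Oaz2: gcctctgtggtgctccTGAtgcccctcacc

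The stretches share 28 of 30 bases, and the differences are G6T and T22C (positions counted from the first base printed, the base of Oaz1 first). The Oaz1 stretch was found at 2 places and the Oaz2 stretch at 3 places in the GRCm39 genome. Because regulation of antizyme acts on translation, the mRNA levels below do not measure antizyme protein.

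Several members have processed copies elsewhere in the genome, and the libraries were sequenced as pairs of 36-base reads. Of the 36-base windows within the canonical exons, 92.2% for Oaz1, 75.7% for Amd1, 69.0% for Oaz2, 68.8% for Odc1 and 53.8% for Sat1 occurred more than once in GRCm39. The share was 37.6% for Sms, 35.8% for Paox, 11.9% for Srm, 0.03% for Smox and 0.02% for Azin1. The summary line for read pairs without a unique placement, which were assigned to no gene, held between 45.4% and 57.9% of a tumour's summed counts. Whether a pair with several placements entered that line more than once was not given, so the share of pairs may be lower. Levels of the genes with many repeated windows can thus be too low in the table, while differences between tumours within such a gene rest on the windows that remain. Amd1 also has a near copy, Amd2, which counted 1.22 ± 0.264 CPM (SD, n = 10).

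Set per length of exon, Srm was the most abundant member at 101 ± 30.8 CPM per kb (SD, n = 10), ahead of Sat1 at 54.4 ± 44.3 and Oaz1 at 54.2 ± 13.1 CPM per kb. Odc1 followed at 18.3 ± 5.13, Azin1 at 14.8 ± 5.09 and Oaz2 at 11.3 ± 2.00 CPM per kb, and these 3 ranges overlapped. Sms and Paox were lowest at 0.728 ± 0.257 and 0.658 ± 0.194 CPM per kb, and did not differ beyond their spread. When only windows found once were used as length, an alternative chosen after seeing the data, Oaz1 came first at 870 ± 211 CPM per kb and Odc1 rose to 71.6 ± 20.1. Srm (140 ± 42.7) and Sat1 (143 ± 117) then overlapped widely, and Azin1 (16.1 ± 5.53) and Smox (8.79 ± 7.22) hardly moved. A pair with a single unique mate may still have been counted, so the second scale can overstate a level, and the order depends on it. Oaz1 changed places with Srm, Oaz2 with Azin1 and Amd1 with Smox, whereas Sat1, Odc1, Sms and Paox kept their rank.

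**Figure D1:**
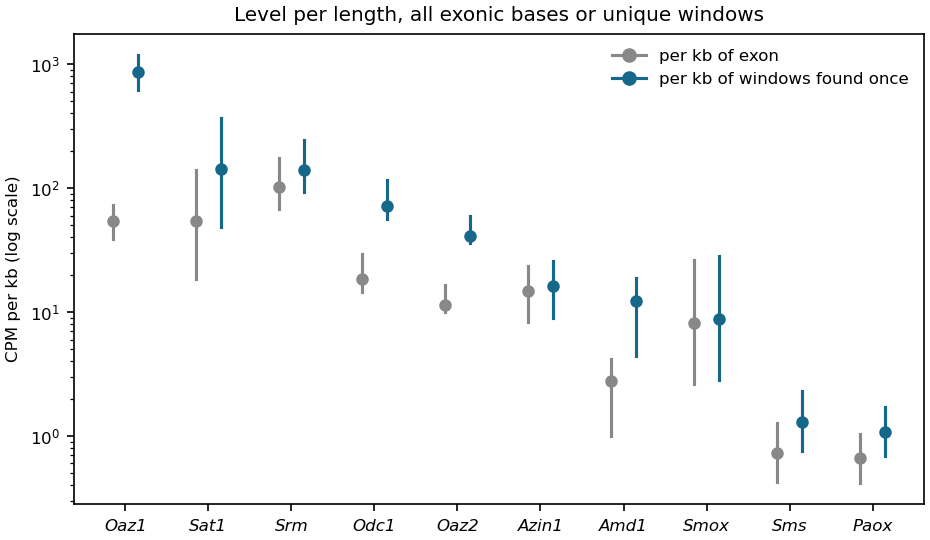
Level per kilobase of each member (log axis), with points for the mean of 10 tumours and lines from the lowest to the highest tumour. Grey uses all exonic bases and blue only 36-base windows found once in the genome. Oaz1 shifts from 54.2 to 870 CPM per kb, whereas Azin1 and Smox keep nearly the same level.

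The enzymes of synthesis varied moderately between tumours. Odc1, the rate-limiting enzyme (chr12:17544808-17551502 in GRCm38.p6), ranged from 33.5 CPM in tumour 05 through a median of 36.4 to 68.4 CPM in tumour 09. The other 2 tumours above 50 CPM were 06 at 56.1 and 12 at 50.3, and the remaining 7 lay between 33.5 and 37.8 CPM. The pattern of Odc1 was thus a narrow base with 3 higher tumours, which belong to 3 different tags. Its SD was 0.36 on the log2 scale, the 55.2nd percentile of the 12462 genes.

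Srm, spermidine synthase (chr4:148591513-148594619), ranged from 91.3 CPM in tumour 04 through a median of 129 to 238 CPM in tumour 06. The second highest, tumour 05, had 157 CPM and carries the same tag as tumour 06. Tumours 10 and 12, with other tags, were close to it at 155 and 150 CPM. Amd1, the decarboxylase that feeds both synthases (chr10:40287458-40302188), had 3.83 CPM in tumour 05, a median of 11.3 and 16.3 CPM in tumour 12. Tumour 05 was far below the rest, since the next lowest, tumour 06, had 8.68 CPM. Without tumour 05 the SD of Amd1 fell from 0.54 to 0.25 on the log2 scale. Sms, spermine synthase (chrX:157443851-157492287), was the least abundant enzyme of synthesis and ranged from 1.59 CPM in tumour 09 through 2.77 to 4.79 CPM in tumour 11. Sms rested on 21 to 118 counts per tumour, so counting error is a larger part of its spread than for the other enzymes of synthesis.

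The 3 regulators differed in how evenly they were expressed. Azin1 (chr15:38487430-38519294) ranged from 43.6 CPM in tumour 05 through a median of 76.1 to 125 CPM in tumour 12, with tumour 11 next at 119 CPM. Oaz1 (chr10:80826656-80829290) ranged from 40.4 CPM in tumour 05 through 58.1 to 76.7 CPM in tumour 08. Tumours 04, 05, 06 and 09 formed a low set of 4, from 40.4 to 44.4 CPM, and the other 6 lay between 54.3 and 76.7 CPM. Oaz2 (chr9:65676548-65690300) was the most even member, from 18.6 CPM in tumour 12 through 19.5 to 30.7 CPM in tumour 07. Its SD of 0.23 on the log2 scale stood at the 19.0th percentile of all genes and fell to 0.12 without tumour 07. Tumour 07 also had the highest summed level of erythroid markers (6181 CPM against a median of 238) and of endothelial markers (432 against 138 CPM), and their part in the Oaz2 value was not tested.

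Sat1 and Smox, both enzymes of breakdown, varied most among the members, and Paox did not. Sat1, the acetyltransferase that starts polyamine export (chrX:155213126-155216449), ranged from 21.5 CPM in tumour 10 through a median of 41.5 to 164 CPM in tumour 05, a 7.63-fold range. Tumours 05 and 06, which share a tag, were the highest at 164 and 144 CPM. Tumour 09 came next at 89.9 CPM, although tumour 10, with the same tag, was the lowest of all. Smox, spermine oxidase (chr2:131491858-131525183), ranged from 9.60 CPM in tumour 12 through 22.6 to 95.4 CPM in tumour 05, a 9.94-fold range. Tumour 05 alone set that width, since the second highest, tumour 04, had 37.8 CPM. Paox (chr7:140115735-140134334), which oxidises acetylated polyamines, ranged from 1.97 CPM in tumour 04 through 2.88 to 4.87 CPM in tumour 12. Paox overlaps Echs1 on the opposite strand, and whether the counting used strand was not given in the sources used here, so its level may include reads of that gene.

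**Figure D2:**
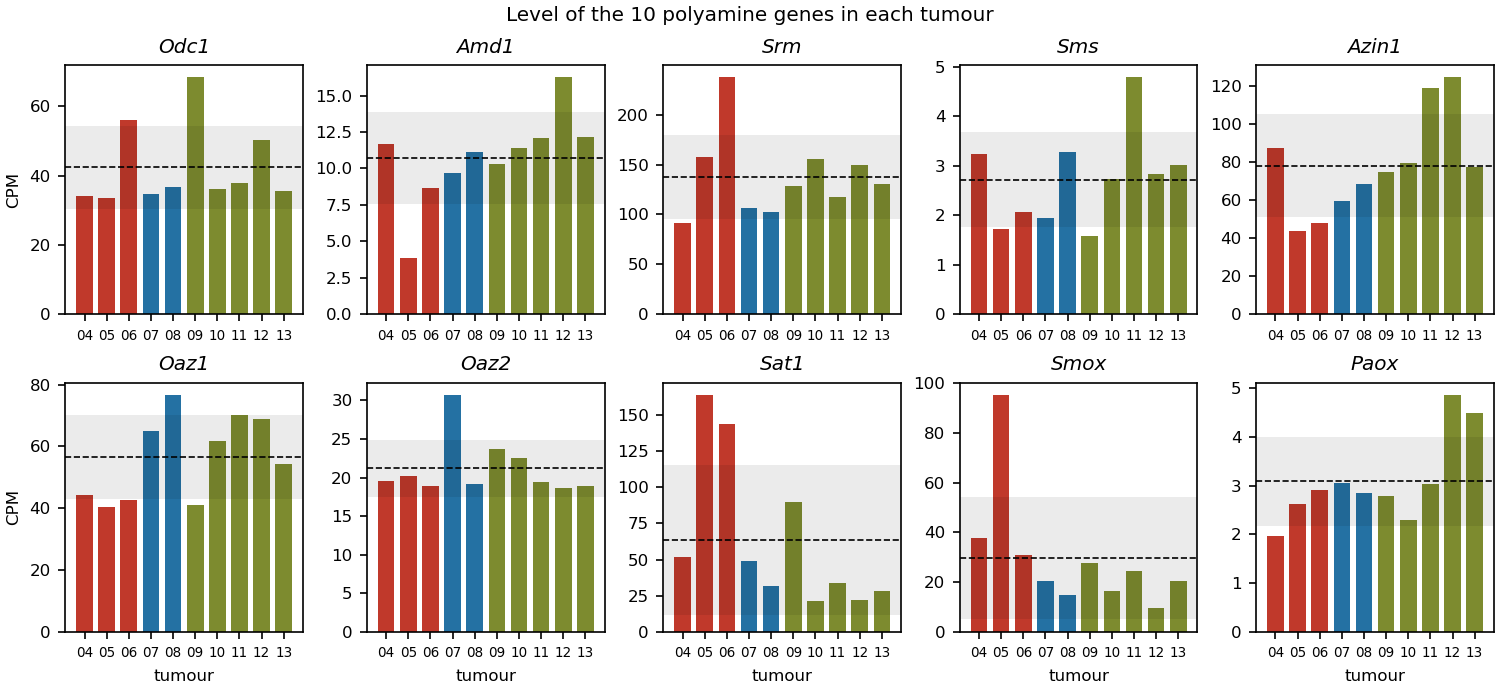
CPM of each member in tumours 04 to 13, 1 bar a tumour (red, tumours 04 to 06; blue, 07 and 08; green, 09 to 13). The dashed line is the mean and the grey band is 1 SD either side (n = 10). Sat1 is highest in tumours 05, 06 and 09, Smox in tumour 05, and Odc1 in tumours 09, 06 and 12.

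Most members had an SD above that of the typical gene, several of them by little. The SD over tumours was above the median of all kept genes (0.33 on the log2 scale) for 9 of 10 members, and the median of the members was 0.44. Odc1, Oaz1 and Paox were only slightly above the median of all kept genes, at the 55.2nd, 55.0th and 59.9th percentiles. Sat1 at 1.07 (95.8th percentile) and Smox at 0.89 (92.8th percentile) were far above the others, of which Amd1 was the widest at 0.54. Without tumours 05, 06 and 07 the SD was 0.73 for Sat1, 0.65 for Smox, 0.21 for Amd1 and 0.14 for Oaz2. Tumour 05 held the lowest value of 4 members (Odc1, Amd1, Azin1 and Oaz1) and the highest of the 2 most variable enzymes of breakdown. As these were whole tumours, fewer cells of a type and less RNA per cell cannot be told apart.

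**Figure D3:**
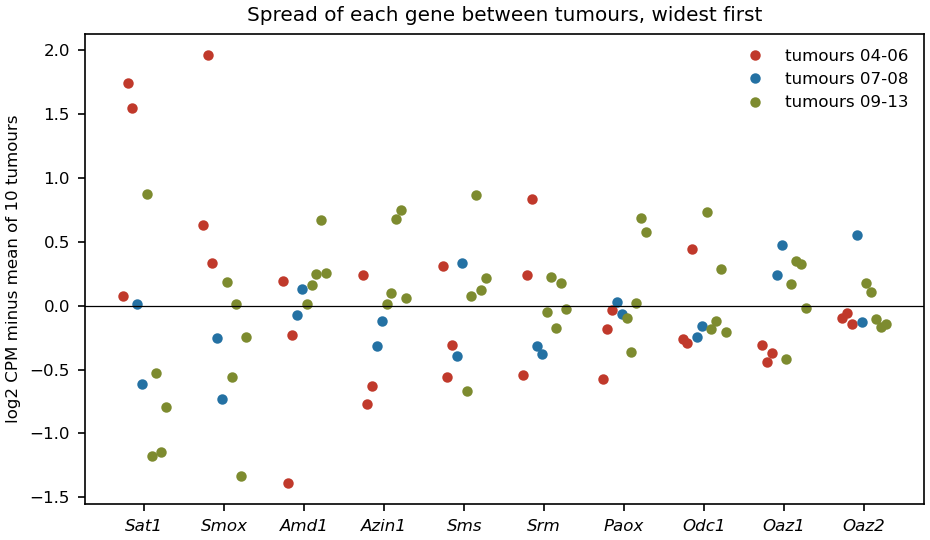
Log2 CPM of each member minus its mean over the 10 tumours, 1 point a tumour, with members in order of falling SD. Sat1 and Smox spread most, with SDs of 1.07 and 0.89, and Oaz2 least at 0.23.

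Whether the other members move with Odc1 was asked by fitting each gene against the log2 CPM of Odc1 in edgeR's quasi-likelihood test. Of 12461 genes tested, 0 (0%) passed an adjusted p of 0.05, and 969 (7.78%) had an unadjusted p under 0.05. DESeq2's Wald test called 45 genes (0.368%). None of the 9 other members was called by either tool, and none was under 0.05 unadjusted in edgeR. Srm had the slope nearest to the threshold, at 0.56 ± 0.33 log2 units per log2 unit of Odc1 (SE, n = 10, edgeR adjusted p = 0.724). It was 0.15 without tumour 06, 1.07 without tumour 09, 0.26 without tumours 05, 06 and 07 and 0.20 with tag as an added term. Slopes were positive for 5 members and negative for 4. A p that misses the threshold does not show that the members move independently of Odc1.

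Over the 10 tumours, the protein-coding genes whose log2 CPM was most like that of Odc1 were Zmym1 (Pearson's r = 0.88), Noc3l (0.878), Mterf1a (0.867), Mrpl21 (0.864) and Ctps1 (0.856), of 11221 compared. Noc3l acts in ribosome assembly, Mrpl21 is a mitochondrial ribosomal protein and Ctps1 makes CTP. All points share library and depth, and these values are a description. Among members the r with Odc1 ranged from -0.413 for Sms to 0.458 for Srm. Over the 7 tumours without 05, 06 and 07, the r of the 5 genes lay between 0.792 and 0.915. Among members the r then ranged from -0.766 for Sms to 0.544 for Sat1. That of Srm was 0.35, and that of Oaz2 was 0.512, against -0.047 over the 10 tumours.

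MYC was one of the drivers, and the relation of the members to it was measured with Myc, the endogenous mouse gene, because the table holds no separate row for the human transgene. Myc ranged from 60.1 CPM in tumour 04 through 81.2 to 136 CPM in tumour 05. Whether reads of the transgene aligned to it was not tested. No gene of 12461 (0%) passed an adjusted p of 0.05 for Myc level in edgeR, and 1856 (14.9%) had an unadjusted p under 0.05, while DESeq2's Wald test called 182 genes (1.55%) and no member. Of the 10 members, 5 had an unadjusted p under 0.05, with positive slopes for Srm (0.84 ± 0.32), Sat1 (1.69 ± 0.67) and Smox (1.32 ± 0.53) and negative slopes for Amd1 (-1.15 ± 0.45) and Azin1 (-0.95 ± 0.42), each as log2 units per log2 unit of Myc (SE, n = 10). Their adjusted p-values in edgeR lay between 0.264 and 0.323. These slopes rested on few tumours. Without tumour 05, which had the highest Myc, they were 1.51 for Srm, -0.61 for Smox and -0.08 for Amd1. Without tumour 04 that of Smox was 2.05. Without tumours 05, 06 and 07 they were -1.23 for Sat1, -2.25 for Smox, 0.18 for Amd1 and -0.56 for Azin1. With family as an added term they were 0.95 for Sat1 and 0.70 for Smox, and with tag as an added term -0.46 for Srm, -0.77 for Sat1, 0.63 for Smox and -0.26 for Azin1. Odc1 had a slope of 0.09 ± 0.39 (edgeR adjusted p = 0.944), and tumour 05 had both the highest Myc and the lowest Odc1. Without tumour 05 that slope was 0.81 (edgeR adjusted p = 0.683), and without tumours 05, 06 and 07 it was 0.58 (edgeR adjusted p = 0.945). It was -0.72 with tag as an added term (edgeR adjusted p = 0.99) and between -0.089 and 0.13 with any tumour but 05 left out.

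The promoter of Odc1 is shown because MYC and its partner MAX bind E-box letters such as CACGTG and, less tightly, CACGCG. The stretch is chr12:17544623-17544922 on the plus strand of GRCm38.p6 (RefSeq), running from 250 bases before to 50 bases after a start of the gene, with the searched letters in capitals.

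Odc1 promoter: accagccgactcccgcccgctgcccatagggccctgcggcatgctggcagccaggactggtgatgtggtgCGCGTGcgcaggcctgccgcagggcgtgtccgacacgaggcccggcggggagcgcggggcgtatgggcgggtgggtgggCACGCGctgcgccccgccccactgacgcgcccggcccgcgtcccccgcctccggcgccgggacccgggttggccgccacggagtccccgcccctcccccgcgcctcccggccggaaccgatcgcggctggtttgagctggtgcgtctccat

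CACGCG was searched on both strands (CGCGTG is its reverse) and begins 180 and 101 bases before the start. It was present in 3045 of 32851 promoter windows of this length (9.27%). CACGTG, which reads the same on both strands, was not in this window and was present in 2349 windows (7.15%). The table held 10 windows for 8 members. Of these, a window of Sms held CACGTG 196 bases before its start, another window of Sms held CACGCG at 140 bases and that of Oaz1 held CACGCG at 212 bases. The windows of Amd1, Oaz2, Sat1, Smox and Paox held neither. Matching letters describe the window and do not show binding, and bases outside the windows were not searched.

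A ribosome biogenesis score without any member in it, chosen as a readout of MYC target activity, was formed as the mean log2 CPM of 22 genes. Myc itself had a slope of 0.71 ± 0.58 log2 units per log2 unit of the score (SE, n = 10, edgeR adjusted p = 0.924). That the score reports MYC activity in these tumours was not tested. No gene of 12440 (0%) passed an adjusted p of 0.05 for this score in edgeR, 766 (6.16%) were under 0.05 unadjusted, and DESeq2's Wald test called 26 genes (0.213%) and no member. Srm was the member under 0.05 unadjusted, with a slope of 1.72 ± 0.43 log2 units per log2 unit of the score (SE, n = 10, edgeR adjusted p = 0.468). It was highest in tumour 06 together with the score, and without tumours 05, 06 and 07 the slope was 1.10 with an edgeR adjusted p of 0.704, and it was 1.06 with tag as an added term (edgeR adjusted p = 0.781). Odc1 had a slope of 1.16 ± 0.55 (edgeR adjusted p = 0.8), which was 1.92 with tag as an added term.

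Proliferation, which draws on polyamines, was scored from 20 cell cycle genes. No gene of 12442 (0%) passed an adjusted p of 0.05 in edgeR, 929 (7.47%) were under 0.05 unadjusted, and DESeq2's Wald test called 72 genes (0.579%) and no member. Of the members only Smox was under 0.05 unadjusted, with a slope of -1.62 ± 0.48 log2 units per log2 unit of the score (SE, n = 10, edgeR adjusted p = 0.4). It was -0.83 without tumour 05, -0.94 without tumours 05, 06 and 07, -0.77 with family and -0.85 with tag as an added term. Odc1 had a slope of 0.34 ± 0.31 (edgeR adjusted p = 0.805), which was 0.69 without tumour 08, 0.20 without tumour 09 and 0.18 without tumours 05, 06 and 07. Srm had one of 0.06 ± 0.36 (edgeR adjusted p = 0.983), which was -0.20 without tumour 04, 0.43 without tumour 08 and 0.15 without tumours 05, 06 and 07.

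The other driver, β-catenin, was scored from 14 of its liver target genes, of which Glul was the most abundant. For this score 27 of 12448 genes (0.217%) passed an adjusted p of 0.05 in edgeR, and 0 of the 10 members did. At an unadjusted p under 0.05 the count was 2056 genes (16.5%) and 4 members, namely Sat1, Smox, Odc1 and Oaz1. Sat1 had a slope of -1.99 ± 0.55 log2 units per log2 unit of the score (SE, n = 10, edgeR adjusted p = 0.129). Tumours 05, 06 and 09, with the 3 lowest scores (7.85, 7.63 and 7.73), had the 3 highest levels of Sat1. Oaz1 went the opposite way with a slope of 0.83 ± 0.21 (edgeR adjusted p = 0.119, and 1.10 with an adjusted p of 0.208 without tumours 05, 06 and 07), and its 4 low tumours were the 4 with the lowest scores. The targets were not uniform in tumours 05, 06 and 09. Of the 14, only Notum, Rnf43, Slc1a2 and Cyp1a2 had their 3 lowest values there. Tbx3 was highest in tumour 05 (249 CPM) and Axin2 second highest (206 CPM), but both were lowest in tumour 09. Glul had 11150 CPM in tumour 05 and 11773 in tumour 06, against 9122 in tumour 07, which had the highest score. Glul was lowest in tumour 09 (5411 CPM). Which targets carried these relations was not tested.

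These relations with the β-catenin score depended on the analysis. DESeq2's Wald test called Sat1 (adjusted p = 0.0285) and Oaz1 (adjusted p = 0.0154), among 496 of 11964 genes (4.15%). In edgeR, Sat1 was called with the Rpph1 set as an added term (adjusted p = 0.0154), where 48 genes (0.386%) were called. It was also called without tumour 07 (edgeR adjusted p = 0.0272, with 132 genes or 1.05% called) and without tumours 05, 06 and 07 (edgeR adjusted p = 0.047, with 152 genes or 1.16% called). The count over all genes in these fits was thus above the 27 of the fit with all 10 tumours and no added term. Across the other alternatives the direction of Sat1 was kept and its adjusted p reached 0.771, with tag as an added term (slope -1.27). With the median over genes as the score, the slope was -1.31 for Sat1 and 0.51 for Oaz1, and with tag as an added term it was 0.41 for Oaz1 (edgeR adjusted p = 0.819). The slope of Sat1 without tumour 07 was -3.27. Smox had a slope of -1.54 ± 0.64 (edgeR adjusted p = 0.264) and Odc1 one of -0.65 ± 0.26 (edgeR adjusted p = 0.241). That of Smox was -0.74 without tumour 05, -0.47 with the median score, -0.18 with family and 0.36 with tag as an added term. That of Odc1 was -0.36 without tumour 09, -1.12 without tumours 05, 06 and 07, -1.17 with family and -1.18 with tag as an added term.

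**Figure D4:**
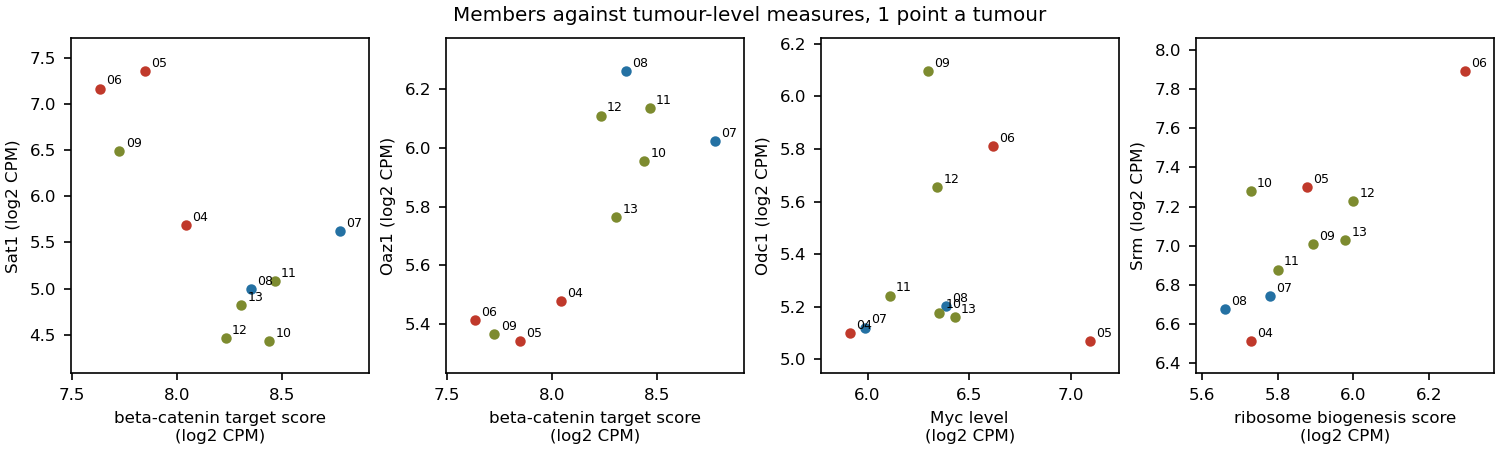
Log2 CPM of a member against a measure of the tumour, 1 point a tumour (red, tumours 04 to 06; blue, 07 and 08; green, 09 to 13). The 3 tumours with the lowest β-catenin target scores (05, 06 and 09) have the 3 highest levels of Sat1, the 4 with the lowest scores have the 4 lowest levels of Oaz1, the slope of Odc1 on Myc is 0.09 ± 0.39 (SE) with tumour 05 and 0.81 without it, and the relation of Srm to ribosome biogenesis includes the extreme tumour 06.

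Because Sat1 is also expressed in macrophages, a macrophage score of 12 genes was fitted as well. All 12 were detected, and 1 of them was at 0 in some tumour. Their summed level was lowest in tumour 10 (186 CPM) and highest in tumour 06 (551 CPM). No gene of 12454 (0%) passed an adjusted p of 0.05 in edgeR, 931 (7.48%) were under 0.05 unadjusted, and DESeq2's Wald test called 73 genes (0.598%) and no member. Sat1 had a slope of -0.11 ± 0.30 log2 units per log2 unit of the score (SE, n = 10, edgeR adjusted p = 0.973), and that value rested on tumour 05. Without tumour 05 the slope was 1.43 (edgeR adjusted p = 0.0895), and without tumours 05, 06 and 07 it was 1.12 (edgeR adjusted p = 0.198). With family, tag or the Rpph1 set as an added term it was 0.26, 0.29 and 0.12. Tumour 05, with the highest Sat1, had the lowest macrophage score (2.05 against 3.20 to 4.77 in the others), with a summed level of 202 CPM. The list was not uniform there. Cd68, a lysosomal protein of macrophages named here after its values were seen, was highest in tumour 05 at 68.3 CPM and ranged from 44.7 to 49.0 CPM in tumours 04, 06 and 09, against 11.4 to 26.9 CPM in the other 6. Clec4f, Vsig4, Marco and Timd4, markers of resident macrophages, had 9, 5, 0 and 2 counts in tumour 05. Adgre1 (3.64 CPM), Csf1r (13.6 CPM), Lyz2 (11.9 CPM) and Cd5l (2.42 CPM) were at their lowest in tumour 05. C1qa, C1qb and C1qc had 32.2, 37.8 and 30.9 CPM there, against lowest values of 25.4, 27.7 and 25.5 CPM in tumour 10. No gene of the list other than Cd68 was highest in tumour 05. The part of macrophages in the level of Sat1 was not tested. Odc1 (0.31 ± 0.11) and Smox (-0.54 ± 0.24) were under 0.05 unadjusted (edgeR adjusted p = 0.552 and 0.627), and the slope of Smox was 0.43 without tumour 05, 0.43 without tumours 05, 06 and 07, -0.28 with family and -0.29 with tag as an added term. That of Odc1 was 0.48 without tumour 05, 0.21 without tumour 09 and 0.58 without tumours 05, 06 and 07.

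The protein-coding genes most like Sat1 over the 10 tumours were Cd14 (Pearson's r = 0.975), Lgmn (0.969), Btg2 (0.968), Hilpda (0.966) and Il6st (0.966), of 11221 compared. Cd14 is a co-receptor for bacterial lipopolysaccharide, Lgmn a lysosomal protease, Btg2 an early response gene that restrains growth, Hilpda a lipid droplet protein induced by hypoxia and Il6st the shared receptor chain of the interleukin-6 family. Their log2 CPM ranged from 0.28 to 5.87 for Cd14 and from 5.19 to 9.39 for Btg2. Among members, Smox was the most like Sat1 (r = 0.816), while Oaz1 (-0.81), Amd1 (-0.794), Azin1 (-0.759) and Sms (-0.676) ran opposite to it. Srm had an r of 0.4. Without tumours 05, 06 and 07 (7 tumours) the r of the 5 genes lay between 0.942 and 0.98. That of Smox was then 0.729, Oaz1 -0.766, Amd1 -0.615, Azin1 -0.312, Sms -0.517 and Srm -0.463. These values are a description, and all points share library and depth.

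The 3 tag families were compared as a possible batch. In edgeR 1 of 12462 genes (0.00802%) passed an adjusted p of 0.05 and 0 of 10 members did, while 1740 genes (14%) and 3 members (Smox, Sat1 and Oaz1) were under 0.05 unadjusted. Relative to tumours 04 to 06, Sat1 was -1.56 log2 units in tumours 07 and 08 and -1.62 in tumours 09 to 13 (edgeR adjusted p = 0.27), and Smox was -1.65 and -1.47 log2 units (edgeR adjusted p = 0.216). Oaz1 was 0.74 and 0.48 log2 units higher (edgeR adjusted p = 0.28). Without tumours 05, 06 and 07 the first 2 families held 1 tumour each, which are assumed to vary like the others. The differences were then -0.71 and -0.40 for Sat1, -1.38 and -0.94 for Smox and 0.78 and 0.42 for Oaz1, each with an edgeR adjusted p of 0.9995. DESeq2's likelihood ratio test called Sat1 and Smox among 508 of 11919 genes (4.26%), and edgeR called Sat1 without tumour 09 among 175 of 12546 genes (1.39%). With family as an added term, the slope of Sat1 on the β-catenin score was -1.94 (edgeR adjusted p = 0.419) and that of Oaz1 was 0.53 (edgeR adjusted p = 0.596).

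Levels were also set beside the shift of the chromosome on which each member lies, taking a tumour's deviation from the mean of the others. The member and the median of the other genes of its chromosome had the same sign in 2 to 8 of 10 tumours. Subtracting that median narrowed the SD of 5 members and widened that of 5. Azin1 on chromosome 15 deviated by 0.83 log2 units in tumour 12, where the median of 489 other genes was -0.27, and by 0.76 in tumour 11, where it was 0.24. Amd1 on chromosome 10 deviated by -1.54 in tumour 05, where the median of 593 other genes was 0.04. In tumour 13, where that chromosome's median was -0.37, Amd1 deviated by 0.29 and Oaz1 by -0.02.

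The wider pathway was described with 36 further genes, of which 29 passed the filter on low counts. None of the 29 was called for any of the 6 measures or for tag family in edgeR. The median SD of the 29 was 0.39 on the log2 scale, and 18 exceeded the median of all genes. Oat, ornithine aminotransferase, which interconverts ornithine and glutamate semialdehyde, ranged from 6087 CPM in tumour 06 through 9592 to 14760 CPM in tumour 10.

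Supply of S-adenosylmethionine rests on Mat1a, the enzyme of mature hepatocytes, and Mat2a, that of most other cells. Mat1a ranged from 1256 CPM in tumour 04 through 2076 to 4012 CPM in tumour 12, and Mat2a from 85.6 CPM in tumour 05 through 158 to 226 CPM in tumour 13. Tumour 05 was thus lowest for both Mat2a and Amd1, which uses its product. Eif5a, the translation factor that is modified with spermidine, was even at 601 ± 91.7 CPM (SD, n = 10), from 457 CPM in tumour 05 to 695 CPM in tumour 13. Oat had a slope of 0.92 ± 0.29 log2 units per log2 unit of the β-catenin score (SE, n = 10, edgeR adjusted p = 0.164), 1 of 9 further pathway genes under 0.05 unadjusted for that score beside the background of 16.5%. DESeq2's Wald test called it (adjusted p = 0.0118, beside the 4.15% of all genes).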

How the data were processed

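Polyadenylated RNA from liver tumours was extracted with Trizol and sequenced as 36-base pairs from a stranded mRNA kit. The authors deposited raw read counts per gene, not normalised, with 5 summary lines of unassigned pairs that were left out of library sizes. The submitters' processing notes name TopHat2, HTSeq and GRCm38. Use of strand was not given in the sources used here. Columns were matched to tumours by a number found in 1 title only (10 columns used, 9 not used), which assumes that titles and columns share their numbering. Members and lists were chosen with earlier results of these data known.

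Counts were scaled with TMM factors (0.927 to 1.11) after edgeR's filterByExpr, and log2 CPM used a prior count of 2. Slopes and families were tested with edgeR 4.0.16 (quasi-likelihood, Benjamini-Hochberg over all kept genes, threshold 0.05, R 4.3.3) and DESeq2 1.42.0, and the fit was tested on simulated data. Symbols came from GENCODE M39 and positions from RefSeq on GRCm38.p6. Named genes are the members, Myc, pathway genes called in a fit, Oat, Mat1a, Mat2a and Eif5a (1 further gene of this rule is not reported here), the 5 genes most like Odc1 and Sat1, and the extremes of marker lists. Amd2, Echs1, Cd68, Clec4f, Vsig4 and Marco fall outside this rule and were named after their values or positions were seen. The same holds for Adgre1, Csf1r, Lyz2, Cd5l, C1qa, C1qc, Tbx3, Axin2, Notum, Rnf43, Slc1a2 and Cyp1a2. Alternatives were other scaling, no filter, a prior count of 0.5, each tumour left out, and added terms for tag family, tag and the Rpph1 set. 3 counts were taken as the floor, and floors cover counting error only. Summed levels were 13.6 to 145 CPM for cholangiocyte, 53.7 to 432 for endothelial, 101 to 6181 for erythroid, 0.764 to 5.42 for lymphocyte and 227 to 1750 CPM for stellate and fibroblast markers.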

Additional observations from a re-analysis of the deposited data

Results flagged for a closer look

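Each member's log2 CPM and the 5 tumour measures were examined for a tumour far from the other 9, as the gap to the nearest value over the whole range, by Dixon's test at the 0.05 level. Chance flags about 1 in 20 of such sets, and 15 were examined. Tumour 05 was far below the others for Amd1, with a gap of 0.563 of the range. Tumour 07 was far above the others for Oaz2, with a gap of 0.522 of the range. Both tumours are among the 3 libraries high in the Rpph1 set, whose part in these values was not tested.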

How the results depend on the processing

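Counts of genes called moved widely. DESeq2's Wald test called 45 genes for Odc1, 182 for Myc, 26 for ribosome biogenesis, 72 for proliferation, 496 for β-catenin (2 members) and 73 for macrophages, where edgeR called 0, 0, 0, 0, 27 and 0. DESeq2's likelihood ratio test called 508 genes for tag family (2 members) against 1. For β-catenin edgeR called 9 without a filter on low counts, 0 with family and 0 with tag as a term, 48 with the Rpph1 set as a term (1 member), 2 with a median score and 152 without tumours 05, 06 and 07 (1 member). For tag family it called 23 without a filter, 0 with the Rpph1 set and 0 without tumours 05, 06 and 07. The Rpph1 term gave 1 gene for Odc1. Leaving out each tumour gave 0 to 1 genes for Odc1, 0 to 107 for Myc (107 without tumour 04, 4 without tumour 13), 0 to 132 for β-catenin (132 without tumour 07, with 0 to 1 members), 0 to 1 for macrophages and 0 to 175 for tag family (175 without tumour 09, 86 without tumour 04, with 0 to 1 members). The cause was not tested.

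No slope that changed sign was called before or after. With each tumour left out Odc1 on Myc ranged from -0.089 to 0.81, Srm on proliferation from -0.20 to 0.43 and Sat1 on the macrophage score from -0.35 to 1.43. With each tumour left out Smox ranged from -0.61 to 2.05 on Myc and from -0.65 to 0.43 on the macrophage score, negative and positive respectively without tumour 05. Without tumours 05, 06 and 07 the slopes on Myc were -1.23 for Sat1, -2.25 for Smox and 0.18 for Amd1, and on the macrophage score 0.43 for Smox and 1.12 for Sat1. Sat1 on that score was 0.26 with family, 0.29 with tag and 0.12 with the Rpph1 set as a term, and Srm on proliferation was -0.053 with a median score. With tag as a term, which left 4 residual degrees of freedom, slopes on Myc were -0.46 for Srm, -0.77 for Sat1 and -0.72 for Odc1, that of Smox on β-catenin was 0.36, and edgeR called 0 genes for each of the 6 measures. Mean levels of members stayed within 1 SD in all 130 cases tried, and 126 of 130 SDs stayed within 1.5 times. No paired analysis was possible because no tumour analysed here shares its replicate number with a sample of another group. Shared tags, which are not replicate numbers, entered only as the added term above. The leave-out of 3 libraries, the tag term, the likelihood ratio test and the length scale of unique windows were chosen after seeing the data. Low depth limits Sms and Paox most.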
